A study of Homo sapiens with 3 samples.

Results

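The genes described here are 10 subunits of the SAGA complex: TADA1, SUPT3H, SUPT7L, KAT2A, KAT2B, TADA2A, TADA2B, TADA3, ATXN7 and USP22. They were found by gene symbol among the probe sets annotated to 1 gene, which gave 30 probe sets for all 10 genes, out of 18239 genes with a named probe set. The set was chosen by a measured value, since TADA1 is among the genes with the largest decreases on the DRB array. The DRB values of the set are therefore given as a description. The arrays were made from A498, an established epithelial line from a human kidney carcinoma, kept in serum-free medium with gentamicin. There was 1 array each for cells with 0.08% DMSO (control), with the bacterium E. coli 83972 and with 60 µM DRB, all harvested at 4 h and all labelled as experiment 2. E. coli 83972 is a urinary strain carried without symptoms, and DRB inhibits the kinase CDK9, which RNA polymerase II needs for productive elongation. DMSO is named for the control alone, and the labels disagree on the number of bacteria.

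SAGA is a large coactivator that is found in most cell types and is brought to promoters by transcription factors. One module acetylates histone H3 through KAT2A (GCN5) or KAT2B (PCAF), another removes ubiquitin from histone H2B through USP22, and a core of histone-fold proteins holds them together and contacts the TATA-binding protein. Some subunits are shared with other complexes. TADA3 and KAT2A or KAT2B are also in ATAC, an acetyltransferase complex in which TADA2A takes the place of TADA2B. Several TBP-associated factors are also in the initiation factor TFIID.

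The promoters of TADA1 and ATXN7 are shown because these were the only members at least 2-fold lower on the DRB array in the probe set that stands for the gene. Each window holds the 250 bases before the start of transcription in RefSeq (GRCh38.p14), written 5′ to 3′ on the strand of the gene. TADA1 lies on the minus strand (chr1:166876265-166876514) and ATXN7 on the plus strand (chr3:63862894-63863143). Capitals mark matches, on either strand, to the motifs searched.

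TADA1: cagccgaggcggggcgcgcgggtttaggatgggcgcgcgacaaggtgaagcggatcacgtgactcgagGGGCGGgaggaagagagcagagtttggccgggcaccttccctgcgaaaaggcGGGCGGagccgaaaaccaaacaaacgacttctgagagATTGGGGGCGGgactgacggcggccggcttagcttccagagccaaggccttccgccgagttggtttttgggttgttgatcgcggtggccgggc

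ATXN7: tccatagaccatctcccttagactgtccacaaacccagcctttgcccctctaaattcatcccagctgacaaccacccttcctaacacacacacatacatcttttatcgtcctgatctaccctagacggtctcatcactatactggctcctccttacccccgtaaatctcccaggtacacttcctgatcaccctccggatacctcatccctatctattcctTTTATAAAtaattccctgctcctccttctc

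The motifs were the TATA box (TATAAA), the CCAAT box (CCAAT), the GC box (GGGCGG), an ETS motif (CCGGAAG), an NRF1 motif (GCATGCGC) and the cyclic AMP element (TGACGTCA). The TADA1 window was 64.8% G and C with 27 CpG dinucleotides, and held 3 GC boxes and 1 CCAAT box. The ATXN7 window was 47.6% G and C with 4 CpG dinucleotides, and held a TATA box read on both strands, whose 2 matches overlap. Both lay under the median of the 10 members, which was 73.2% G and C and 30 CpG dinucleotides, beside 58% and 11 over 27305 promoters. GC boxes were in 7 of 10 members and 42.3% of all promoters. A TATA box was in 1 of 10 members, ATXN7, and in 11.1% of all promoters, and CCAAT boxes were in 2 of 10 members (TADA1 and TADA2B) and 33% of all. The ETS motif was in SUPT7L alone (8.82% of all), the NRF1 motif in SUPT3H alone (2.81%) and the cyclic AMP element in 0 of 10 (1.77%). These matches describe the letters of the windows and show no binding.

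Every level below is a deposited log2 value of 1 probe set, and a difference is one array minus another on that scale. Levels of different probe sets depend on their probes and are not compared. Where a gene has several probe sets, the brightest on average stands for it. A gene passed the filter on dim signal (was kept) when at least 1 of the 3 arrays read 4.88 or more, which is the median over the whole table. Of the 10 members 9 passed, and TADA2A did not. With 1 array per group no test was possible, and each difference compares single arrays, whose number limits its precision. As technical error alone, the disagreement of the 2 brightest probe sets of 6317 genes gave a standard deviation of 0.32 for a difference of DRB from control (0.15 by a robust estimate) and 0.18 (0.12) for E. coli 83972. In RNA of a whole culture, fewer cells with a transcript and less of it per cell cannot be told apart. Markers of the line were above the filter for all 6 with a named probe set (PAX8, PAX2, KRT8, KRT18, CDH6 and VIM), and PTPRC, CD14, LYZ, CDH5, COL3A1, PDGFRB and LUM, which mark leukocytes, endothelium and fibroblasts, were below it. Of the same lists CD3E, CD68, PECAM1, VWF and COL1A1 were above it. No marker of the 4 lists differed 2-fold between a treated array and control.

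TADA1, a core subunit whose histone fold pairs with that of TAF12, stood apart from the other core genes on the DRB array. Its level was 7.80 on the control array, 7.68 with E. coli 83972 and 3.89 with DRB. The first 2 arrays lay close together, and DRB was 15.0-fold lower than control (log2 −3.91), the third lowest difference of 11653 kept genes. The DRB value was under the filter level, where background compresses values, so the size of the fold is uncertain. The probe set read here has the suffix s, which marks probes shared by transcripts that can be of different genes, although it is annotated to 1 gene. The other probe set of TADA1 read 6.93, 6.81 and 5.06 in the same order, a difference of −1.87 with DRB. Both probe sets were at least 2-fold lower, but they disagreed in size (mean −2.89 ± 1.44, SD over 2 probe sets). The same probe sets differed from control by −0.12 each with E. coli 83972, which is within the technical error.

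The remaining core genes stayed within 2-fold on all arrays. SUPT7L, whose histone fold pairs with that of TAF10, read 8.31 on control, 8.31 with E. coli 83972 and 8.12 with DRB. Its 3 probe sets differed by between −0.22 and 0.18 with DRB and between 0.01 and 0.14 with E. coli 83972, so they did not share a direction with DRB. SUPT3H, the human counterpart of yeast Spt3, read 5.69, 5.99 and 6.22 in that order, with the control array lowest. Its difference was 0.53 with DRB and 0.29 with E. coli 83972, the highest DRB value among the members. This rests on 1 kept probe set, since the other was at 3.33 to 3.39 on all 3 arrays.

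**Figure D1:**
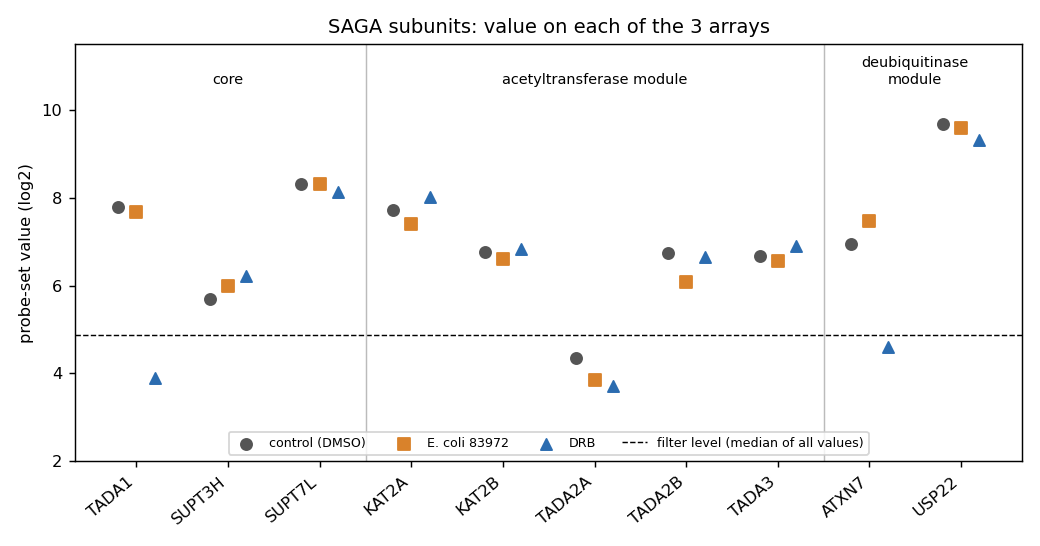
Log2 value (vertical axis) of the probe set that stands for each of the 10 SAGA subunits, grouped by module, on the control, E. coli 83972 and DRB arrays (1 point per array, no error bars since there is 1 array per group). TADA1 (3.89) and ATXN7 (4.61) lie below the dashed filter level with DRB alone, and TADA2A lies below it on every array.

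The catalytic subunits of the acetyltransferase module differed little between arrays. KAT2A, represented by 1 probe set, read 7.71 on control, 7.41 with E. coli 83972 and 8.01 with DRB. Its differences were 0.30 with DRB and −0.30 with E. coli 83972. KAT2B, its paralogue, read 6.77, 6.60 and 6.84 in that order, with differences of 0.07 and −0.17. For both genes the DRB array was the highest and the E. coli 83972 array the lowest of the 3. The other 2 probe sets of KAT2B were under the filter level on every array.

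TADA3, an adaptor that both catalytic subunits need for activity on nucleosomes, read 6.68 on control, 6.56 with E. coli 83972 and 6.91 with DRB. All 5 of its probe sets were higher with DRB than control, by 0.15 to 0.36, and its 3 kept probe sets averaged 0.30 ± 0.07 (SD over probe sets). The 5 probe sets differed by −0.36 to 0.03 with E. coli 83972. These values are near the technical error of a single probe set.

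TADA2B, the adaptor that SAGA uses in place of TADA2A, had kept probe sets that disagreed on the 2-fold call. The probe set that stands for the gene read 6.75 on control, 6.09 with E. coli 83972 and 6.65 with DRB, so the E. coli 83972 array was lowest. Another, with a suffix that marks probes similar to other sequences, read 6.93, 6.11 and 5.16, so the DRB array was lowest. They gave −0.10 and −1.77 for DRB, and 1 more kept probe set gave 0.11 (mean −0.59 ± 1.03, SD over 3). For E. coli 83972 the same 3 gave −0.66, −0.82 and −0.26 (mean −0.58 ± 0.29), all below 0. Of all kept genes 2.19% had a lower difference with E. coli 83972 than the −0.66 of TADA2B.

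TADA2A, the paralogue used by ATAC, was dim in this line. Its brighter probe set read 4.34 on control, 3.86 with E. coli 83972 and 3.71 with DRB, and the other read 3.61, 3.22 and 2.91. Both were highest on the control array, with differences of −0.64 and −0.70 for DRB and of −0.48 and −0.40 for E. coli 83972. All 6 values lie under the filter level, so they are compressed and the gene is in none of the counts.

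ATXN7, which anchors the deubiquitinase module to the complex and whose expanded glutamine tract causes a spinocerebellar ataxia, was lower than control on the DRB array and higher on the E. coli 83972 array. It read 6.96 on control, 7.47 with E. coli 83972 and 4.61 with DRB, the highest value being that with the bacterium. The difference was −2.35 for DRB (5.09-fold lower) and 0.52 for E. coli 83972 (1.43-fold higher). Of all kept genes 1.3% had a lower difference with DRB than ATXN7. The probe set behind these values has the suffix s, as for TADA1. A further kept probe set gave −2.30 and 0.68. Another passed the filter through the E. coli 83972 array alone (5.55) and was under it on control (4.67) and with DRB (4.17). Its differences, −0.51 and 0.88, are given as a description and do not reach 2-fold. The other 2 probe sets of the gene were under the filter level throughout, at 3.08 to 3.30 and 4.28 to 4.34, and differed from control by at most 0.17 in size. On the DRB array the level of the gene was under the filter level as well, so its fold is uncertain.

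USP22, the ubiquitin protease of the module, read 9.68 on control, 9.58 with E. coli 83972 and 9.31 with DRB. The DRB array was the lowest, by −0.37. A further bright probe set read 9.31, 9.35 and 9.08, a difference of −0.22 for DRB, and a dim one gave 0.12. Its 3 probe sets differed by −0.11 to 0.05 with E. coli 83972. The anchor of this module was thus past 2-fold on the DRB array and its catalytic subunit was not.

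**Figure D2:**
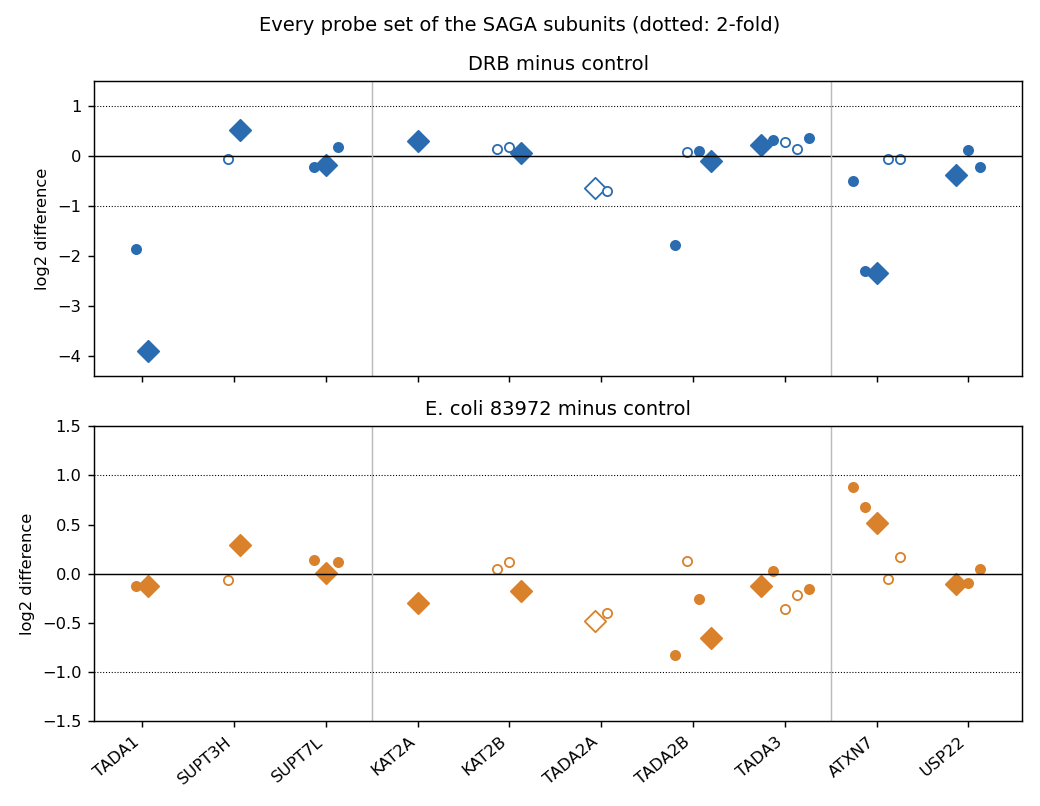
Log2 difference from control (vertical axes) of all 30 probe sets of the SAGA subunits, with DRB (upper panel) and E. coli 83972 (lower panel); diamonds stand for the gene, circles are its other probe sets, open symbols are under the filter level and dotted lines mark 2-fold. Both probe sets of TADA1, 2 of ATXN7 and 1 of TADA2B are past 2-fold with DRB, and none is past it with E. coli 83972.

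Counted over the set, 2 of 9 kept members were at least 2-fold lower with DRB and 0 higher, beside 10.2% and 0.129% of all kept genes. Since the contrast chose the set, nothing is read from that count. The kept members nearest the threshold were ATXN7 at −2.35 inside and USP22 at −0.37 outside, and TADA2A, under the filter, was at −0.64. The median difference of the 9 was −0.10, beside 0.05 for all kept genes, with 5 below 0. By probe set, 5 of 20 kept probe sets were at least 2-fold lower, beside 8.44% of all kept probe sets, and these came from TADA1, ATXN7 and TADA2B. Among all genes with several kept probe sets whose brightest was at least 2-fold lower, the next brightest was so too for 345 of 667 (51.7%). TADA1 and ATXN7 are both of that kind.

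With E. coli 83972, 0 of 9 kept members were at least 2-fold lower and 0 higher, beside 0.652% and 1.91% of all kept genes. The extremes were TADA2B at −0.66 and ATXN7 at 0.52. Both exceed in size the technical standard deviation of 0.18, which holds no variation between cultures, so they are not established as changes. Centring on hybridization spike-ins gave −0.91 and 0.26. The median was −0.12, beside −0.03 for all kept genes, with 6 of 9 below 0. All 4 kept members of the acetyltransferase module were below 0 (−0.12 to −0.66), as were 54.7% of all kept genes. SGF29, a gene of that module counted here with the other SAGA genes, was at 0.02. Both comparisons use the same control array, so their values are not independent of each other.

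Set directly against DRB, E. coli 83972 had 2 of 9 kept members at least 2-fold higher and 0 lower, beside 12.3% and 0.386% of all kept genes. They were TADA1, 3.79 higher, and ATXN7, 2.86 higher. The DRB values that chose the set enter this contrast as well, so nothing is read from the count. Next in size was KAT2A, at −0.60, with the E. coli 83972 array lower. The 4 kept members of the acetyltransferase module differed by −0.24 to −0.60, beside 57.3% of all kept genes below 0. That sign did not hold throughout the module: TADA2A, under the filter, was at 0.16, and another kept probe set of TADA2B was at 0.95 (mean over 3 kept probe sets 0.01). SGF29, of the module but outside the members, was at 0.25. KAT2B and TADA3 turn above 0 under poly-A centring.

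Of 13 other SAGA genes, all kept, 1 was at least 2-fold lower and 0 higher with DRB, beside 10.2% and 0.129% of all kept genes, and the median was 0.05. Poly-A centring (described with the scalings) lowers every DRB value by 0.65, so each DRB value above 0 named for these and the related lists turns below 0 under it. The gene past 2-fold was TAF5L, a SAGA-specific relative of TAF5, at −1.09, and its other probe set gave −0.73. SUPT20H, a scaffold of the core, was at −0.74, with all 5 probe sets between −0.87 and −0.57. TRRAP, the large subunit that contacts activators, was higher by 0.60 with DRB and by 0.81 with E. coli 83972, in 1 kept probe set. TAF9, a histone-fold protein shared with TFIID, was at 0.05, but 1 of its 4 kept probe sets was at −2.04 (mean −0.47). TAF12, the histone-fold partner of TADA1, differed by 0.17 with DRB and −0.29 with E. coli 83972.

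Genes of the sister complex ATAC outside the members lay lower. Among the members that ATAC shares, KAT2A was at 0.30 with DRB, KAT2B at 0.07 and TADA3 at 0.23. TADA2A, under the filter, was at −0.64. SGF29, which ATAC shares and which is counted with the other SAGA genes, was at −0.23. All 8 listed genes other than the members were below 0 with DRB, beside 44.2% of all kept genes, and 4 were at least 2-fold lower, beside 10.2%. These were ZZZ3, a reader of the histone H3 tail (−1.91), KAT14, another acetyltransferase (−1.70), MBIP (−1.19) and YEATS2, a reader of acylated histones (−1.08). The median was −0.75. None was 2-fold different with E. coli 83972, KAT14 being at −0.58 and YEATS2 at 0.52. The count of 4 became 3 when all probe sets of a gene were averaged, and 0 with plain-suffix probe sets, which cover 4 of the genes.

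TFIID genes outside SAGA had 4 of 11 kept genes at least 2-fold lower with DRB, 0 higher and a median of −0.76, beside 10.2% and 0.129% of all kept genes. They were TAF4 (−2.39), TAF5 (−1.79), the TATA-binding protein gene TBP (−1.32) and TAF3 (−1.16). TAF5 was under the filter level with DRB (4.56), so the size of its difference is uncertain. The 3 kept probe sets of TAF3 ran from −1.16 to 0.53 (mean −0.21). The largest differences with E. coli 83972 were −0.48 for TAF3 and 0.47 for TAF13. TAF13 was under the filter level on control (4.69) and passed through the E. coli 83972 (5.16) and DRB (5.22) arrays. Its difference is therefore given as a description. The count of 4 became 2 when all probe sets of a gene were averaged (median −0.21), and 0 of 2 genes with plain-suffix probe sets (median 0.17). It was 3 of 9 when all 3 values had to reach the filter level.

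Other histone acetyltransferase genes had 2 of 8 kept genes at least 2-fold lower with DRB, KAT6B (−1.39) and KAT6A (−1.09), beside 10.2% of all kept genes, and a median of −0.72. KAT7 followed at −0.83. The coactivators EP300 and CREBBP, at −0.70 and −0.73 with DRB, were higher by 0.56 and 0.54 with E. coli 83972. With DRB the kept probe sets of CREBBP ran from −1.16 to 0.13 (mean −0.48). Those of KAT7 ran from −0.83 to 0.20 (mean −0.45), and those of KAT6A from −2.27 to −0.77 (mean −1.26). With the mean over probe sets 0 of the 8 were 2-fold lower with DRB and the median was −0.47. Genes that add ubiquitin to histone H2B or remove it, other than USP22, had 0 of 6 kept genes 2-fold different from control. Of all kept genes 10.2% were lower and 0.129% higher with DRB, and 0.652% and 1.91% with E. coli 83972. With poly-A centring 1 of the 6 was 2-fold lower with DRB. The lowest with DRB were USP27X, a relative of USP22 (−0.52), USP3 (−0.29) and the conjugating enzyme gene UBE2B (−0.25). USP27X was near the filter level on control (4.96) and under it with DRB (4.45). With E. coli 83972 UBE2B was at 0.41 and the ligase gene RNF20 at −0.28. The ATXN7 paralogues ATXN7L1 and ATXN7L2 were under the filter level in the probe sets that stand for them, with differences of 0.06 each with DRB. Of the 6 probe sets of ATXN7L1, 1 passed the filter and differed by −0.46. None of these differences between lists was tested.

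**Figure D3:**
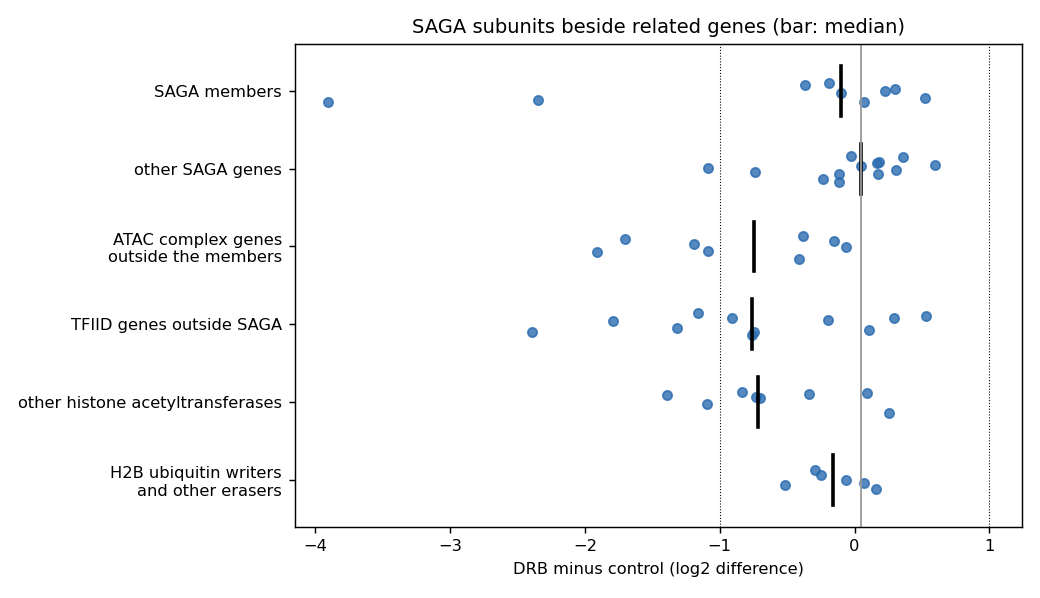
Log2 difference of DRB from control (horizontal axis) for each kept gene of the SAGA set and of 5 related lists, 1 point per gene with vertical jitter for legibility; black bars are medians, the grey line is the median of all kept genes (0.05) and dotted lines mark 2-fold. The bars of ATAC, TFIID and other acetyltransferase genes lie at −0.75, −0.76 and −0.72, and those of SAGA members and other SAGA genes at −0.10 and 0.05.

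The sign of the small DRB differences depended on how the arrays were scaled. Centring on 24 poly-A spike-in probe sets moved the median of all kept genes from 0.05 to −0.60. All 9 kept members were then below 0, so SUPT3H (−0.13), KAT2A (−0.35), KAT2B (−0.58) and TADA3 (−0.42) changed sign. USP22 then reached −1.02, past 2-fold. KAT2B was also below 0 with centring on hybridization spike-ins (−0.14) and with loess correction (−0.06). TADA1 and ATXN7 were at least 2-fold lower as deposited and under the 3 other scalings, with ranges of −4.56 to −3.91 and −3.00 to −2.35. The poly-A and hybridization centrings lower every DRB value alike, by 0.65 and 0.21. They could not have moved these genes inside 2-fold, so nothing is concluded from them. For E. coli 83972, SUPT7L turned from 0.01 to −0.13 and −0.25 under the 2 spike-in centrings, and the other kept members kept their sign under each scaling.

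**Figure D4:**
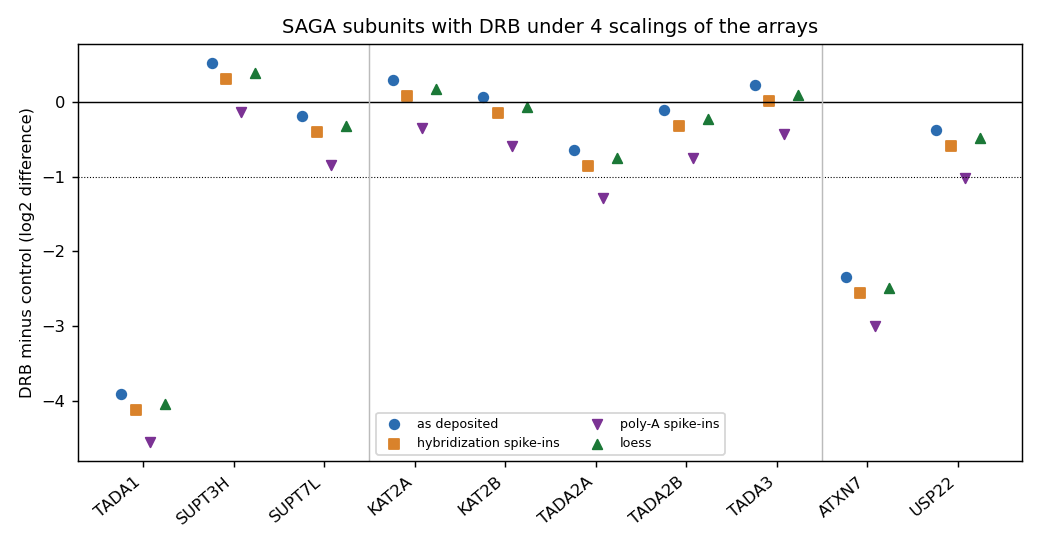
Log2 difference of DRB from control (vertical axis) for each SAGA subunit with the values as deposited, centred on hybridization spike-ins, centred on poly-A spike-ins and after loess correction; the dotted line marks 2-fold lower. TADA1 and ATXN7 lie below −2 under each of the 4, whereas SUPT3H, KAT2A and TADA3 are below 0 with poly-A spike-ins alone.

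The kept genes whose pattern over the 3 arrays was most like that of TADA1, by Euclidean distance over the 2 differences from control, were PELO (distance 0.31), MARS2 (0.36), NAPEPLD (0.37), TRIM32 (0.54) and CMTR2 (0.59). Their differences with DRB were −3.73, −3.74, −3.77, −3.40 and −3.52 in that order, and those with E. coli 83972 were 0.13, −0.44, −0.46, −0.29 and −0.56. None of them is a SAGA gene, and ATXN7 was not among the 5. On the DRB array TADA1 and all of them but PELO were under the filter level, where values are compressed, so the distances and their order are uncertain. The likeness rests on 3 arrays and describes these values alone.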

How the data were processed

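RNA of 3 A498 cultures was measured on Affymetrix 3′ expression arrays, 1 per group. The values used are the log2 probe-set values the authors deposited, which the submitters' processing notes link to RMA and Partek; which arrays were processed together, and the versions, are not stated there. RMA brings arrays to nearly one distribution, so a change shared by most transcripts is reduced. Of 49386 probe sets, 45259 had 1 gene symbol, 1327 had several and 2800 were unlisted. Symbols were updated through Entrez identifiers with a RefSeq table (GRCh38.p14), which gave current names for 45178. NCOA3 and CA9 had no named probe set.

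Differences, medians and counts past 2-fold were computed in Python 3.11.15 with pandas 2.3.3 and tested on simulated data. Loess used statsmodels 0.14.6 with a span of 0.3. No p-value is given. Promoters are those of RefSeq, matched for all 10 members.

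The members, lists, comparisons and thresholds were chosen with earlier results of these data known. Named genes are all members, up to 3 of each list by size with DRB and up to 2 with E. coli 83972, any 2-fold different, and the 5 nearest patterns to TADA1. SGF29, TAF9, TAF12, ATXN7L1 and ATXN7L2 were named after their values were seen. Alternatives were the mean over probe sets, plain-suffix probe sets, other filters, 3 other scalings and 1.5-fold.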

Additional observations from a re-analysis of the deposited data

How the results depend on the processing

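The count of 2 members at least 2-fold lower with DRB was 0 with plain-suffix probe sets, which neither TADA1 nor ATXN7 has, and 0 when all 3 values had to reach the filter level, which removes both. At 1.5-fold, 1 member, TADA2B, was lower with E. coli 83972. The median of the kept members moved from −0.10 to −0.75 with DRB under poly-A centring, and from −0.12 to −0.37 with E. coli 83972 under centring on hybridization spike-ins, which shift all genes alike. With the mean over all probe sets TADA1 was at −2.89 and ATXN7 at −1.05 with DRB, and TADA2B at −0.42 with DRB and −0.40 with E. coli 83972.

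Of 11653 kept genes, the 1185 at least 2-fold lower with DRB (10.2%) became 2880 under poly-A centring (24.7%) and 2106 at 1.5-fold (18.1%). They were 698 of 9861 (7.08%) with the mean over probe sets and 401 of 3461 (11.6%) with plain-suffix probe sets. With E. coli 83972, 222 were higher and 76 lower (74.5% higher), 171 and 115 under poly-A centring (59.8%), 141 and 170 on hybridization spike-ins (45.3%), and 605 and 357 at 1.5-fold. Plain-suffix probe sets gave 82 and 22 of 3461, and the mean over probe sets 157 and 43 of 9861. The precision of every value is limited by 1 array per group.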

Other observations

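Genes next to the members in the RefSeq gene order were also read, as genes named after their values were seen. Of 20 protein-coding neighbours of the 10 members, 14 were kept. With DRB 0 of the 14 were at least 2-fold lower as deposited, beside 10.2% of all kept genes. They ranged from −0.95 to 0.47 with a median of −0.28, beside 0.05 for all kept genes. Poly-A centring lowers every DRB value by 0.65, so the count depends on the scaling. Under it POGK, SGO1, CDC5L, DUSP14, CFAP184, RUNX2 and SLC4A1AP, at −0.95 to −0.36 as deposited, are at least 2-fold lower. They are a larger share of the 14 than the 24.7% of all kept genes. The lowest was POGK, which lies beside TADA1. ATXN7 lies between THOC7 (0.22) and PSMD6 (−0.20). With E. coli 83972, 1 of the 14 was at least 2-fold higher, RUNX2 (1.07), a transcription factor gene of bone formation beside SUPT3H, which itself differed by 0.29.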
